A study of Mus musculus with 11 samples.

Results

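DNA methylation was compared between granulocyte-macrophage progenitors (GMP) and stem and multipotent progenitor cells (LSK) of mice whose floxed Dnmt3a gene had not been deleted. The libraries were chosen by their labels: the Cre-negative GMP libraries 346 and 349 and the Cre-negative LSK libraries 1326, 1330 and 1331, which are 5 of the 11 libraries of the series. The study itself set mice that lost Dnmt3a in the blood system against such controls. The control mice were C57BL/6 mice with the floxed (cKO) alleles and no Mx1-Cre transgene, were given 5 injections of poly(I:C) as the knockout mice were, and were 12 months old. LSK cells were sorted from lineage-depleted bone marrow as Lin- Sca1+ cKit+ cells, and GMP as Lin- Sca1- cKit+ CD34+ FcgR+ cells. The knockout libraries, used below to read the same places in other animals, carried Mx1-Cre, whose promoter responds to interferon, with 2 libraries from GMP and 3 from LSK. Nothing in the labels says that each library came from a separate mouse, so the tests below weigh differences against the spread of the libraries, whatever its source.

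LSK is the gate that holds the blood stem cells and multipotent progenitors, and GMP give rise to neutrophils, monocytes and macrophages. In mammals methyl groups sit mostly on C in CpG pairs, where Dnmt3a and Dnmt3b place them, Dnmt1 copies them after replication and the Tet enzymes start their removal. Starts of most genes lie in dense CpG islands that stay free of methylation, while bodies and the space between genes are mostly methylated, and enhancers in use tend to be lower. As blood cells become myeloid, loss at myeloid genes and enhancers is the change best known from other work.

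The assay was enhanced reduced representation bisulfite sequencing, in which the enzyme MspI cuts at CCGG and the read of each C tells whether it was methylated. A level is the percentage of reads that were methylated, and every difference below is GMP minus LSK in percentage points. On the autosomes 1334231 C positions had at least 10 reads in all 5 libraries. They filled 102573 fixed tiles of 1000 bp with at least 3 positions each, whose level is that of all their reads summed. GMP libraries were shallower, with medians of 52 and 56 reads a position, against 89 to 105 in LSK. Summed over autosomal positions, depth was 97.1 M and 105 M reads in GMP and 154 M to 179 M in LSK. No number in the labels is shared by a GMP and an LSK library, so cell type cannot be told apart from mouse, depth or library preparation. LSK libraries 1330 and 1331 listed 211 and 212 positions on the Y chromosome, and the other 3 listed 1226 to 1470. On the X chromosome they listed 36153 and 36605, and the other 3 listed 28659 to 33313. Both GMP libraries were among the other 3, so these counts are partly mixed with cell type. Results with a term for Y positions are given in the closing part. Mean absolute differences between tiles were 2.28 to 2.55 points between LSK libraries, 3.47 between the GMP libraries and 3.49 to 3.98 between a GMP and an LSK library. The marker genes set for each cell type were read as methylation only, since no expression was measured. Of the 15 tiles at GMP markers 5 were lower in GMP and 0 higher, where 0.977% of all tiles were lower. The lower tiles lay at Mpo (2), Cebpe (2) and Ctsg (1), and they are met again in the gene lists below. None of the 4 tiles at Csf1r, 2 at Prtn3, 2 at Fcgr3 and 1 at Elane passed. The mean level of the 15 tiles was 73.3 to 74.2% in the LSK libraries and 60 to 60.5% in the GMP libraries. At stem cell markers 1 of 58 tiles was lower, and at markers of B cells, T cells, erythroid cells, megakaryocytes, mast cells and stroma 0 tiles passed in either direction; their part in the results was not tested.

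The mean level over all positions was almost the same in both cell types, at 33.1 and 33.2% in the GMP libraries (33.1% ± 0.0394, SD, n = 2) and 33.2 to 33.3% in the LSK libraries (33.3% ± 0.0248, SD, n = 3). Before rounding the groups did not overlap, and the difference was -0.124 points (exact two-sided permutation test, p = 0.2, which is the smallest that 2 libraries against 3 allow). The sign turned when positions were weighted by their reads (2.65 points) and when each library's own list of positions was used (0.673 points). Positions were then sorted by their level in the knockout libraries, which the comparison did not use. Those at 40 to 60% there had 57.3 and 57.5% in GMP against 59.5 to 60.1% in LSK, a difference of -2.45 points, and those at 60 to 80% differed by -1.44 points. Positions at 5 to 20% were 0.683 points higher in GMP, and at 20 to 40% the difference was -0.489 points with overlapping libraries. None of the 7 bins could pass a test in this design (exact permutation test, p = 0.2 at best and 0.28 after Benjamini-Hochberg adjustment). Positions at 80 to 95% and at 95 to 100% differed by -0.156 and -0.144 points.

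Tiles that changed were mostly lower in GMP: 1002 of 102573 tiles fell by at least 20 points and 195 rose by at least 20 points at an adjusted p under 0.05. Those are 0.977% and 0.19% of all tiles. The test was a quasi-binomial model of methylated and unmethylated reads, with the spread between libraries moderated across tiles by limma and Benjamini-Hochberg adjustment over all tiles. Lower tiles went from a median level of 75.8% in LSK to 37.7% in GMP, with a median difference of -30.3 points, and 127 of them fell by at least 50 points. Higher tiles went from 37.8% to 67.9%, with a median of 25.2 points. Over all tiles the median difference was -0.0653 points. Every C position of the tile was lower in 794 of the 1002 lower tiles (79.2%), and every one was higher in 131 of the 195 higher tiles. In all of these tiles the GMP and LSK libraries did not overlap, a pattern that 18% of all tiles showed downward and 14% upward. When each library's reads at a position were drawn down at random to the lowest coverage of the 5 libraries (thinned reads), 923 tiles were lower (0.9%) and 142 higher (0.138%), and 853 and 126 of these were among the tiles above.

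By place, the tiles that fell lay in gene bodies more often than all tiles did. Bodies held 608 of the 1002 lower tiles (60.7%) and 45.9% of all tiles, the space between genes held 27.4%, and windows within 1 kb of a gene start held 79 tiles (7.88%) against 20.1% of all tiles. Most starts are unmethylated and cannot fall, so the share was also taken over tiles whose LSK level was at least 20%. Of those, 1.87% were lower near gene starts, 1.45% in bodies and 1.09% between genes. Tiles that rose were 108 in bodies (55.4%), 58 between genes (29.7%) and 21 near starts (10.8%). Tiles were also sorted by distance to the nearest gene start. Of tiles able to fall, 1.85% within 2 kb upstream and 1.84% within 2 kb downstream of a start were lower, against 0.516% more than 50 kb upstream and 0.626% more than 50 kb downstream. Over all tiles tested, most of which near starts had too low a level to fall, the order was not the same: 0.472% within 2 kb upstream and 0.43% within 2 kb downstream were lower, against 1.47% and 1.45% at 2 to 10 kb and 0.497% and 0.597% beyond 50 kb. Gains were least frequent within 2 kb of a start, at 0.216% of tiles able to rise upstream and 0.0868% downstream. At 2 to 10 kb, 10 to 50 kb and beyond 50 kb they were 0.797, 0.817 and 0.678% upstream and 0.928, 1.08 and 1.1% downstream. Of the tiles that fell, 555 (55.4%) held 3 or 4 measured positions, against 41.9% of all tiles. Of tiles able to fall, 1.41% of those with 3 or 4 positions and 1.37% of those with 5 to 9 were lower. By contrast, 0 of 5585 tiles with at least 50 positions were lower, by the same test. Only 63 of those 5585 had a level that allowed a fall.

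**Figure D1:**
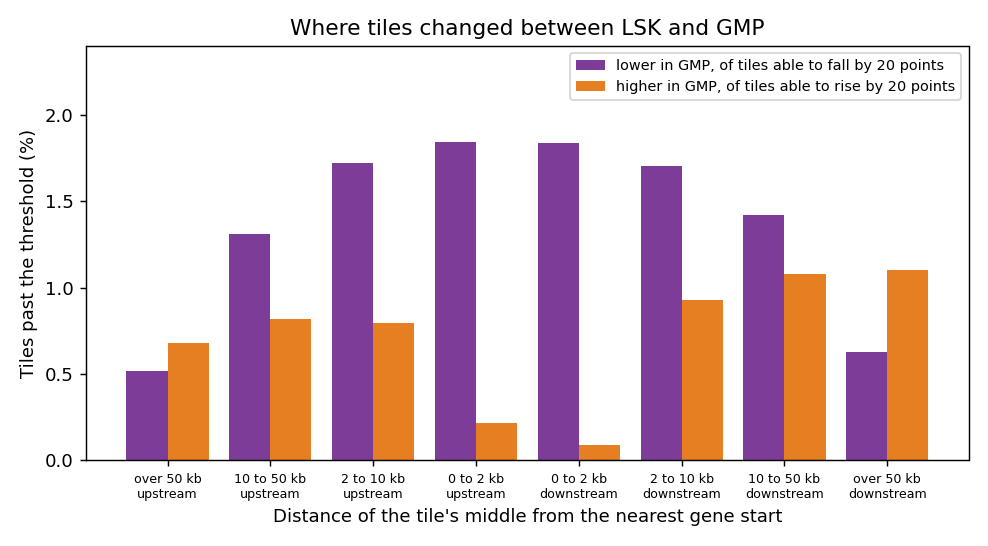
Bars give the percentage of tiles that passed the threshold in each class of distance from the nearest gene start of known direction, for tiles able to fall (purple) or to rise (orange) by 20 points. Among tiles able to fall, losses peak at 1.85% within 2 kb upstream of a start and are least, at 0.516%, more than 50 kb upstream (0.472 and 0.497% of all tiles there), and gains are least within 2 kb of a start.

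The 10 largest losses had LSK means of 80.5 to 92.9% and GMP means of 1.08 to 19.6%, the highest at Gnat2, where the GMP libraries were apart at 5.26 and 34.0%. The largest lay 56217 bp from an end of the gene Gm30292, at chr3:52854001-52855000 in GRCm38 coordinates. Its levels were 91.1, 91.7 and 88.3% in LSK and 0 and 2.17% in GMP (LSK and GMP values follow this library order throughout), a difference of -89.3 points (adjusted p = 8.56e-08). In the body of Uggt1, a sensor of protein folding in the endoplasmic reticulum, a tile at chr1:36233001-36234000 had 88.6, 88.5 and 92.7% in LSK and 5.12 and 5.31% in GMP. Sema4d, a semaphorin that acts in immune cells, had 90.6, 87.4 and 88.4% against 4.29 and 10.8% at chr13:51711001-51712000. All 3 tiles rested on 3 C positions. A tile within Dock6, an activator of small GTPases, lay at the start of another gene, Angptl8. It fell from 95.3, 95.5 and 79.7% to 16.2 and 3.38%. Tiles near Sdad1, Gm39850 and Gm42372 and within Lrpap1, Sec22b and Gnat2 fell by 73.3 to 78.6 points. Lrpap1 is a chaperone of LDL receptor proteins and Sec22b a SNARE of traffic between endoplasmic reticulum and Golgi. In none of these 10 did leaving out any 1 library end the call. Few genes held several passing tiles: of 645 genes with a lower tile 64 had at least 2. Gse1 had 4 of 112 tiles lower, with differences of -56.2 to -23.1 points, and Cmip, Fndc3b and Pxn, which encodes the focal adhesion adaptor paxillin, had 3 each.

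The largest gain lay in the body of Ube2ql1, at chr13:69703001-69704000, with 8.73, 9.57 and 11.8% in LSK and 93.2 and 78.4% in GMP, a difference of 75.8 points (adjusted p = 1.08e-05). Pik3r1, the regulatory subunit of PI3-kinase, had 5.45, 9.95 and 14.1% against 60.6 and 68.5% in a tile at its start. These, with tiles in Dcdc2c, Gm42252 and Dip2c, lay in 100 windows of 5 Mb in which the GMP and LSK libraries listed different positions, so the mouse of origin and the cell type cannot be told apart there. Those windows held 11.2% of all tiles, 9.08% of lower tiles and 15.9% of higher tiles. Of the 8 largest gains the first outside them was near the start of Egfl7, a secreted endothelial factor that hosts a microRNA gene: 34.7, 28.6 and 34.7% in LSK and 79.3 and 80.2% in GMP at chr2:26585001-26586000 (47.1 points, adjusted p = 2.78e-05). Dst rose by 43.8 points and Gm38514 by 43.7 points. The call of Dst ended without GMP library 346 (adjusted p = 0.166), the library with 83.2% against 51.8% in 349. Of 131 genes with a higher tile, Arhgap9, Ltbp3, Pik3r1 and Ube2ql1 had 2.

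The gene lists used from here on were chosen with earlier results of these data known, so their shares describe the lists and test nothing. Genes of neutrophil granules, which hold the enzymes made in GMP and promyelocytes, had 3 of 37 tiles lower and 0 higher (8.11%, against 0.977% of all tiles). The lower tiles lay at 2 members, and the median difference of the 37 tiles was -1.2 points. Mpo encodes myeloperoxidase, the most abundant of these enzymes. Its tile at chr11:87799001-87800000 had 90.9, 88.9 and 93.1% in LSK and 52.6 and 49.8% in GMP, which is 90.9% ± 2.11 (SD, n = 3) against 51.2% ± 1.96 (SD, n = 2), a fall of -39.8 points (adjusted p = 8.47e-06). A tile 2 kb further along Mpo went from 95.8, 96.0 and 93.9% to 64.2 and 61.5%. All 20 measured C positions of Mpo were lower in GMP, by 1.01 to 68.2 points, and 16 by at least 20 points. The largest change was at chr11:87801214, where 92.9, 95.7 and 88.9% in LSK stood against 28.0 and 20.6% in GMP, over 50 to 98 reads a library. Ctsg, the serine protease cathepsin G, had 91.5, 89.8 and 89.9% against 48.2 and 56.0% in a body tile at chr14:56100001-56101000. Its difference was -38.3 points (adjusted p = 1.34e-05), and all 5 positions were lower. Elane, neutrophil elastase, had 1 tile at 94.2, 92.8 and 96.2% in LSK and 84.9 and 86.9% in GMP, a difference of -8.51 points (adjusted p = 0.044) that was under the 20-point threshold, and Prtn3, proteinase 3, had 2 tiles at -3.36 and -0.197 points. The body of Prtn3 was at 1.89% in LSK and 1.86% in GMP, a level that left no room for a fall.

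**Figure D2:**
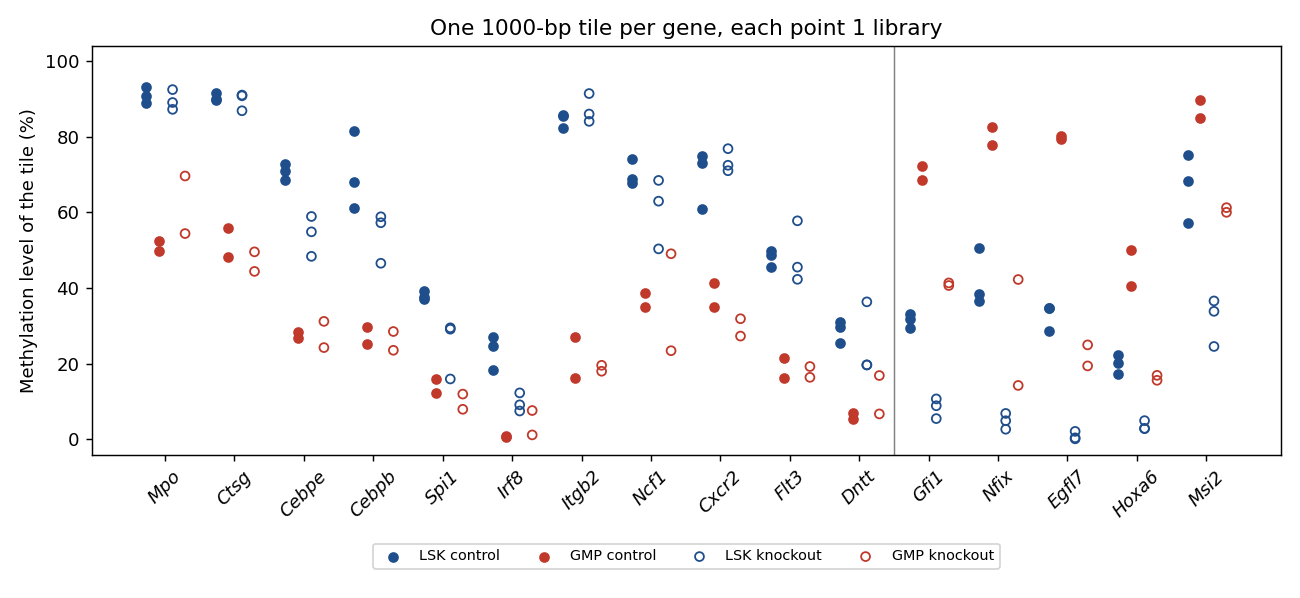
Each point is the methylation level (%) of 1 library in the 1000-bp tile of each gene with the largest difference; blue is LSK, red GMP, filled control and open knockout, and the vertical line separates tiles that fell from tiles that rose. Open points cover the positions measured in all 10 libraries. At Mpo the control GMP libraries sit at 49.8 and 52.6%, below all LSK libraries, and at Gfi1 they sit at 68.5 and 72.4%, above them.

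Of the tiles at myeloid transcription factors, 6 of 137 were lower (4.38%, against 0.977% of all tiles), at 4 members. In this list 1 tile was higher (0.73%, against 0.19% of all tiles), and the median was -0.289 points. Cebpe drives the later steps of granulocyte maturation. A tile at its end of higher coordinate, chr14:54712001-54713000, had 68.6, 70.9 and 72.8% in LSK and 26.8 and 28.5% in GMP (-43.1 points, adjusted p = 7.51e-05). The tile beside it fell by -29.3 points, and all 20 C positions of the locus were lower. Cebpb, a related factor of monocytes and of emergency granulopoiesis, had 81.4, 61.3 and 68.1% against 29.7 and 25.3% in a tile 915 bp from its start. Of its 3 positions 2 were lower and 1 was 12.7 points higher. Spi1 encodes PU.1, the factor that sets the myeloid fate, and a body tile with 3 positions went from 39.2, 37.6 and 37.1% to 16.1 and 12.4%. No other of the 6 tiles at Spi1 passed, and its body differed by -9.91 points, short of the 10-point threshold for genes. Irf8, the factor of monocytes and dendritic cells, had 24.7, 18.3 and 27.2% against 0.637 and 0.99% in a body tile. No other of the 13 tiles at Irf8 itself passed, and its body, with 84 positions, differed by -3.87 points (adjusted p = 0.323, same model). A second tile near Irf8 fell by -21.2 points, but with thinned reads by -15.5 points, short of the threshold, and its call ended without 349 (adjusted p = 0.0706). The 153 positions at the start of Cebpa, the factor needed to form GMP, were at 0.392% in LSK and 0.255% in GMP, so no loss could be read there.

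Gfi1 was the member of this list that rose. It encodes a repressor that favours granulocytes over monocytes and also restrains stem cell division. In a body tile of 53 positions at chr5:107721001-107722000 the levels were 31.8, 33.2 and 29.3% in LSK and 68.5 and 72.4% in GMP. That is 31.5% ± 1.96 (SD, n = 3) against 70.4% ± 2.74 (SD, n = 2), a rise of 39.0 points (adjusted p = 8.75e-07). All 53 positions were higher in GMP, 48 of them by at least 20 points. The whole body rose by 26.4 points (adjusted p = 2.62e-05), while the start of Gfi1 stayed at 0.375 and 0.0623%. Of the 53 positions 32 were also measured in every knockout library, and over these the means were 36.4% in control LSK and 74.0% in control GMP, and 8.39% in knockout LSK and 41.0% in knockout GMP.

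**Figure D3:**
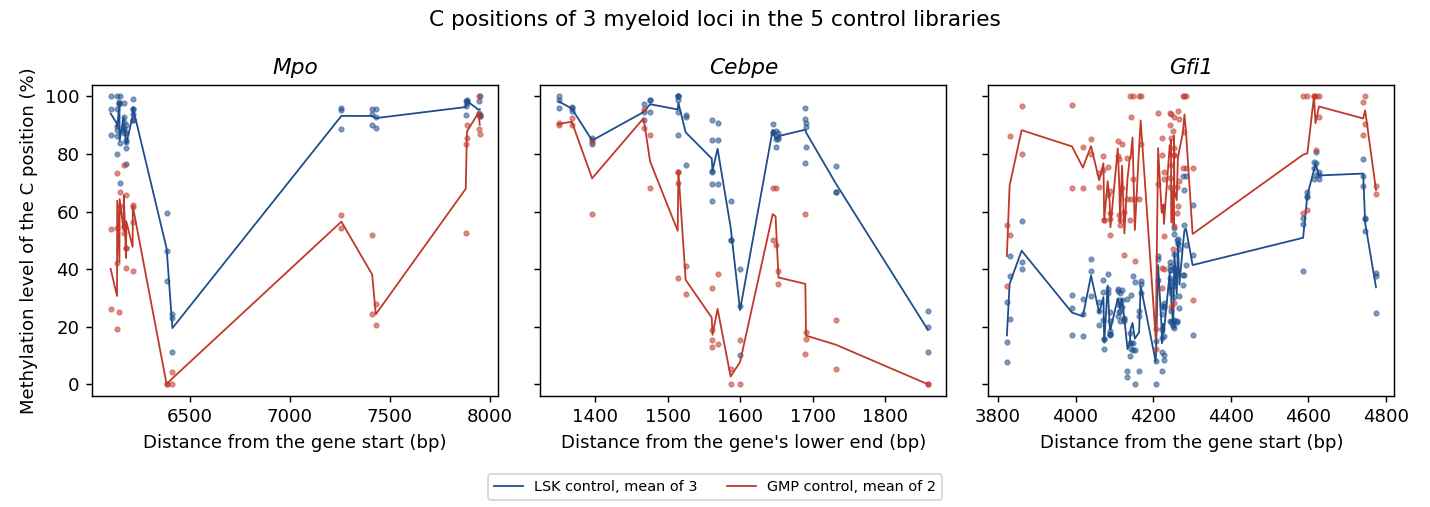
Points are the methylation levels (%) of single C positions in each control library against distance (bp) in Mpo, Cebpe and Gfi1, and lines are group means, blue for the 3 LSK and red for the 2 GMP libraries. The GMP line lies below the LSK line at all 20 positions of Mpo and of Cebpe, and above it at all 53 positions of Gfi1.

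Among receptors and adhesion molecules of myeloid cells 2 of 85 tiles were lower (2.35%, against 0.977% of all tiles) and 1 was higher (1.18%, against 0.19%). Itgb2 encodes the beta chain shared by the leukocyte integrins. Its body tile at chr10:77548001-77549000 had 85.4, 82.4 and 85.9% in LSK and 16.4 and 27% in GMP (-62.9 points, adjusted p = 1.26e-06), the largest loss at any gene of the 16 lists, and all 6 positions fell by 50.4 to 83.5 points. The body of Fcgr3, part of the Fc receptor used to sort GMP, fell from 93.7, 92.3 and 91.4% to 74.7 and 75.4%, a call that ended without library 349 (adjusted p = 0.0531). Il17ra, the interleukin-17 receptor, had a tile with 58.5, 33.1 and 53.2% against 17.8 and 13.8%. That call ended without 346, 349, 1326 or 1331, with adjusted p of 0.0616 to 0.215. The higher tile of the list lay in Tmem121b, next to Il17ra, and its difference of 34.7 points was 9.15 points with thinned reads. In genes of neutrophil migration and killing 2 of 81 tiles were lower (2.47%, against 0.977% of all tiles) and 0 higher. Ncf1, a subunit of the phagocyte oxidase, had 67.9, 68.9 and 74.2% against 35.0 and 38.7% (-33.5 points, adjusted p = 0.000206), with 12 of 13 positions lower. Cxcr2, the chemokine receptor that releases neutrophils from the marrow, had 61, 75 and 73% against 34.9 and 41.3% in a tile 3994 bp from its start, and its call ended without 346 (adjusted p = 0.0631). Cytokine signalling genes had 1 of 212 tiles lower (0.472%, under the share of all tiles), in Ptpn6, the phosphatase SHP-1. Its call ended without 346 (-18.0 points), 1326 (-25.1) or 1330 (-26.1).

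Genes of stem cells and self-renewal had 4 of 466 tiles lower (0.858%, near the 0.977% of all tiles). In this list 2 tiles were higher (0.429%, against 0.19% of all tiles), and the median was -0.00519 points. Flt3, the receptor of multipotent progenitors, had 48.8, 45.5 and 49.9% in LSK and 16.3 and 21.5% in GMP in a body tile with 3 positions. No other of the 4 tiles at Flt3 passed, and its body differed by -3.89 points (adjusted p = 0.397, same model). Nfia fell from 79.3, 79.3 and 85.2% to 37.2 and 39.8%, and Nfix, of the same nuclear factor I family, rose from 50.7, 38.5 and 36.6% to 77.8 and 82.6%. The call of Nfix ended without 349 (adjusted p = 0.0769). Etv6, an ETS repressor needed by adult stem cells, had 2 neighbouring tiles that fell by -34.3 and -41.0 points, both in a window with unequal position lists. Msi2, an RNA-binding protein, had a body tile that rose by 20.4 points, just past the threshold, and by 19.9 with thinned reads. Its call also ended without 346, 349 or 1326. Other stem cell genes had tiles and none past the threshold: 22 at Mecom, 26 at Runx1, 12 at Gata2, 9 at Meis1, 7 at Hlf, 7 at Kit, 6 at Hoxa9 and 1 at Cd34. Their differences ran from -16.1 points in Runx1 to 18.5 points in Hlf. Part of these places had no room for a fall. In LSK the tile at Cd34 was at 0.194% and the body of Hoxa9 at 0.283%. The starts of Hlf, Meis1, Gata2, Mecom and Kit were at 0.0212 to 0.622%. Bodies of Mecom, Runx1, Hlf and Kit, at 40.9 to 73.0% in LSK, did have room. At Dnmt3a 11 tiles had differences of -8.32 to 1.72 points, and its start was at 0.192% in LSK and 0.136% in GMP. At Tet2 5 tiles differed by -2.23 to 0.766 points. At the myeloid receptor gene Csf3r 2 tiles differed by -0.789 and -0.644 points. They were at 0.942 and 0.644% in LSK, which left no room for a fall, and the second lay at the start of Mrps15. The 4 tiles at Csf1r, a GMP marker named above, had room, at 86.7 to 97.3% in LSK. Their differences were -2.77 to 4.18 points, and the body of Csf1r differed by 1.32 points (adjusted p = 0.677, same model).

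In lymphoid genes 2 of 278 tiles were lower (0.719%, against 0.977% of all tiles) and 0 higher. Dntt, the terminal transferase of early lymphoid cells, had 29.6, 31.0 and 25.5% in LSK and 7.06 and 5.47% in GMP (-22.4 points, adjusted p = 0.000476). The other lay at the start of Fam167b beside Lck, and its difference was -14.7 points with thinned reads and did not pass without 346, 349, 1326 or 1331 (adjusted p of 0.116 to 0.189). Interferon response genes had 2 of 55 tiles lower (3.64%) and 1 higher (1.82%, against 0.19% of all tiles). Downstream of Irf1, an early factor of the response, a tile 12528 bp from the nearest start went from 81.0, 86.6 and 79.6% to 34.6 and 45.5%, and one at the start of Ifitm2, a membrane protein that blocks viral entry, from 56.9, 52.2 and 51.8% to 29.5 and 25%. A tile near its neighbour Ifitm1 rose, from 45.5, 50.3 and 45.7% to 71.7 and 72.3%, a call that ended without 349 (adjusted p = 0.0579). Among the methylation machinery 2 of 133 tiles were lower (1.5%). They lay at Gadd45a (-26.1 points) and at Tet1, an enzyme that oxidises methyl groups (-22.4 points). The call at Gadd45a ended without 346 (adjusted p = 0.105) and that at Tet1 without 349 or 1330 (adjusted p up to 0.265).

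Of homeobox tiles 0 of 272 were lower and 1 was higher (0.368%), where 0.977% of all tiles were lower and 0.19% higher. The higher tile lay 329 bp from the start of Hoxa6, in the cluster that patterns the embryo and acts in blood stem cells. It had 22.4, 17.2 and 20.3% in LSK and 50.0 and 40.5% in GMP (25.3 points, adjusted p = 0.00099). Of 40 homeobox starts 0 were lower and 2 higher, at Hoxa6 (16.9 points) and an end of Hoxb6 (17.5), where 0.172% of all starts were higher. Of 33 homeobox bodies 0 were lower and 1 higher, Hoxa3 (10.5 points), where 1.89% of all bodies were higher. With thinned reads these were 15.6, 16.2 and 5.88 points, and only Hoxa6 passed. The call of Hoxa6 ended without 346 (12.5 points). Developmental transcription factors had 0 of 616 tiles lower and 1 higher (0.162%), near Tbx2. Erythroid and megakaryocyte genes had 0 of 140 lower and 1 higher (0.714%), in Zfpm1. The rise in Zfpm1 was 20.5 points, 18.1 with thinned reads and 18.3 without 1330. Germline genes had 0 of 89 tiles and genes of mast cells, basophils and eosinophils 0 of 45 in either direction, by the same test. Stroma and endothelium had 0 of 153 lower and 1 higher (0.654%), the tile of Egfl7 given above. Imprinted genes, in which 1 parental copy is methylated, had 3 of 183 lower (1.64%) and 1 higher (0.546%). These were tiles at Snrpn (-26.0 points), Igf2r (-23.1) and Gnas (-21.5), and a tile in Impact with 36.7% in 346 and 82.2% in 349 against 22.4 to 27.8% in LSK. Each of these 4 calls ended when 1 of several libraries was left out, with adjusted p up to 0.188, 0.125, 0.141 and 0.131.

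At gene starts, read over 1000 bp to either side, 45 of 16284 were lower (0.276%) and 28 higher (0.172%), with a threshold of 10 points. With thinned reads the counts were 31 (0.19%) and 16 (0.0983%), and 29 and 13 passed both ways (0.178% and 0.0798%). Starts therefore changed in few genes, and the median difference over all starts was -0.0662 points. Without GMP library 346 the counts were 12 lower and 4 higher, without 349 they were 7 and 4, without 1326 they were 27 and 18, and without 1330 the higher starts were 51. The genes named next were chosen after their values were seen, from those that passed both ways. Abca13, a large lipid transporter of the ABC family, had 96.1, 95.3 and 90.9% in LSK and 42.4 and 59.1% in GMP (-43.4 points, adjusted p = 0.00128). Ubash3a, a regulator of T cell receptor signalling, went from 79.1, 80.4 and 71.9% to 39.7 and 41.5%. H6pd, an enzyme that makes NADPH in the endoplasmic reticulum, went from 84.0, 89.2 and 82.8% to 56.2 and 55.1%. Vwa7 rose from 16.8, 17.5 and 19.4% to 42.6 and 49.1% (27.9 points, adjusted p = 0.00173), and Tcfl5, a helix-loop-helix factor, over 117 positions from 19.9, 20.1 and 18.2% to 32.1 and 32.8%. The calls of H6pd, Vwa7 and Tcfl5 ended without 349 and that of Abca13 without 346, with adjusted p of 0.0547 to 0.0677.

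The promoter windows of these 4 genes are printed to show how few C positions carried the losses and how dense those of the gain at Tcfl5 were. They are RefSeq sequences on GRCm38.p6, from 250 bases before to 50 after the start, 5′ to 3′ on the gene's strand. Capitals mark the measured C positions that moved by at least 20 points, as C, or as G where the measured C lay on the other strand. Abca13 lies at chr11:9191692-9191991 on the plus strand, H6pd at chr4:150003187-150003486 on the minus strand, Vwa7 at chr17:35016329-35016628 on the plus strand and Tcfl5 at chr2:180642642-180642941 on the minus strand.
Abca13: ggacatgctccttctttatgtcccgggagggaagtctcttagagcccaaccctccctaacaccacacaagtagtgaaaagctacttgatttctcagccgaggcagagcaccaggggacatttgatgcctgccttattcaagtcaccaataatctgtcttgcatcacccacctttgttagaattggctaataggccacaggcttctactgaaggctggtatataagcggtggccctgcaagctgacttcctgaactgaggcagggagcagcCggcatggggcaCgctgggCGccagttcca
H6pd: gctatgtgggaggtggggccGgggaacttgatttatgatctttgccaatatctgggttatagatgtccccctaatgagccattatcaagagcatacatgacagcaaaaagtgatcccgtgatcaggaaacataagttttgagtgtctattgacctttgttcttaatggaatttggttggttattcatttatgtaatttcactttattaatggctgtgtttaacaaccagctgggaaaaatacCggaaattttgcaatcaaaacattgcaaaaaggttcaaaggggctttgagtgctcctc
Vwa7: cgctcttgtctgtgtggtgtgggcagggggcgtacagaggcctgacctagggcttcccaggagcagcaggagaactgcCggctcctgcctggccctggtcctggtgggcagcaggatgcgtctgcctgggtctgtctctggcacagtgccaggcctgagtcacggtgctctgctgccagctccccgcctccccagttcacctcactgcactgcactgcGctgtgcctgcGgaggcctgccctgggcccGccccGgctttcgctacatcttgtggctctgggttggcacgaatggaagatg
Tcfl5: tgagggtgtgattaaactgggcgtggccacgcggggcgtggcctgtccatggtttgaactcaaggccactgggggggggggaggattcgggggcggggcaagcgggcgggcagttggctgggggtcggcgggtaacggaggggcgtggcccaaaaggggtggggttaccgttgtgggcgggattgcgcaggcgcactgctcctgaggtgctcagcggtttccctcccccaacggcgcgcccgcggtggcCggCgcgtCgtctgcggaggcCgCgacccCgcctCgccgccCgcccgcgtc

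In the Abca13 window all 4 measured positions fell, by 22.4 to 78.2 points, and all 4 lie downstream of the start site. In that of H6pd both measured positions fell, by 31.0 and 43.1 points. In that of Vwa7 5 of 6 rose by at least 20 points, with differences of 13.3 to 41.4 points, and in that of Tcfl5 8 of 13, with 0.877 to 41.0 points. Motifs known for myeloid factors were searched on both strands of the 300-base windows of 12530 genes. GAGGAA, the core bound by PU.1, was in 25.6% of them, in 6 of 18 windows of lower starts and in 3 of 12 of higher ones. TTGCNNAA, bound by the C/EBP factors, was in 7.34% of them, in 4 of 18 and in 0 of 12. Such a match is a string of letters, and no binding was measured. Rbmxl2, a germ cell RNA-binding protein, and Cdh8, a cadherin, also had higher starts, by 13.2 and 10.6 points. The end of Mir142, the gene of a microRNA of blood cells, was lower: 8.53, 12.1 and 12.7% in LSK and 0.867 and 0.776% in GMP (-10.3 points). The calls of Rbmxl2, Cdh8 and Mir142 ended without 346 and without 349, and that of Mir142 also without 1330 and without 1331.

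Gene bodies, more than 1000 bp from both ends, fell in 293 of 13991 genes (2.09%) and rose in 264 (1.89%) with the reads as deposited. With thinned reads 220 fell (1.57%) and 29 rose (0.207%), and 162 (1.16%) and 22 (0.157%) passed both ways. The share of rises among the calls was thus far smaller with thinned reads. Summed reads weight each position by its coverage, and thinning makes that coverage equal in all 5 libraries. Without 346 the counts with reads as deposited were 156 and 103, without 349 they were 136 and 77, without 1326 they were 195 and 155, and without 1331 the higher bodies were 170. Calls that passed both ways are given here. Sec22b fell by -73.8 points and Lrpap1 by -57.6 points. Mpo fell from 91.3, 90.1 and 90.3% to 51.0 and 47.2% (-41.5 points, adjusted p = 7.52e-06). Gpr183, an oxysterol receptor that guides immune cells, went from 52.3, 54.3 and 61.1% to 17.1 and 18.6%, and Samsn1, an adaptor of blood cells, from 71.3, 76.1 and 63.8% to 34.5 and 34.8%. Kcnn4, a calcium-activated potassium channel, rose over 56 positions from 52.9, 48.2 and 42.6% to 75.3 and 75.4% (27.4 points, adjusted p = 0.000408). The call of Samsn1 ended without 349. Among list members, rises of the bodies of Lck (12.7 points), Lef1 (10.5), Notch1 (13.2) and Hmga2 (10.5) and of the start of Dazl (14.8) were gone with thinned reads, at -0.476, -0.699, -1.08, -0.0797 and -0.339 points. Falls of the bodies of C5ar1 (-15.8 points), Cyba (-14.6) and Il10rb (-17.1) did not pass with thinned reads either, at -11.7, -15.1 and -1.53 points.

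**Figure D4:**
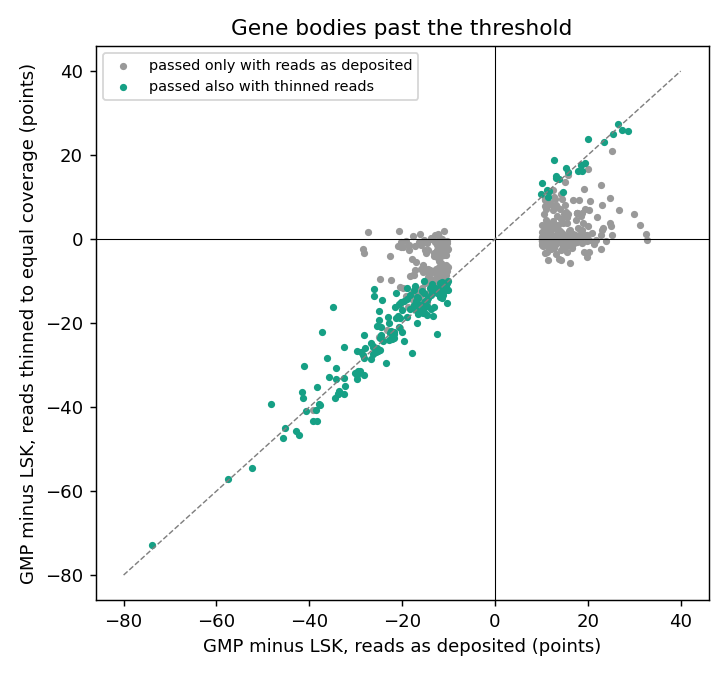
Each point is a gene body that passed the threshold, with its difference (points) from reads as deposited on the horizontal axis and from thinned reads on the vertical axis; green bodies passed both ways and the dashed line marks equal values. Most of the 264 rises lie near 0 on the vertical axis, while 162 of 293 falls passed both ways.

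At single C positions 4016 fell (0.301%) and 1021 rose (0.0765%) by at least 25 points. Here the model took 1 spread for all positions of a given coverage, so the spread at the position itself did not enter. With thinned reads 1347 fell (0.101%) and 134 rose (0.01%). Without 346 the counts were 947 and 101, without 349 they were 638 and 44, and without an LSK library they were 2922 to 3188 and 589 to 637. Positions are therefore given here only inside tiles and genes that passed by themselves.

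The libraries labelled as knockout, from Cre-positive mice, gave a reading of the same tiles in other animals, over the positions measured in all 10 libraries (every position of 890 of the 952 lower and 157 of the 179 higher tiles). Their depth was split as in the controls, with medians of 51 and 59 reads a position in GMP and 85 to 93 in LSK. Cell type and depth therefore cannot be told apart in these libraries either. Of the 952 lower tiles measured there 924 (97.1%) were also lower in knockout GMP than in knockout LSK, by a median of -24.3 points. In 824 (86.6%) the knockout libraries did not overlap, against 15.8% of all tiles. Of 179 higher tiles 155 (86.6%) were also higher, by a median of 16.9 points, and in 123 (68.7%) the libraries did not overlap, against 12.2% of all tiles. At the higher tiles the medians were 24.2% in knockout LSK and 44.1% in knockout GMP, against 36.1% and 67.0% in the control libraries over the same positions. Egfl7 is an example, at a mean of 0.921% in knockout LSK and 22.2% in knockout GMP. At the lower tiles the knockout medians were 68.3% and 37.8%, against control medians of 76.3% and 37.7%. Because the tiles were chosen by a large difference in the control libraries, the sizes of control and knockout differences cannot be compared here. At Itgb2, Ctsg and Flt3 the knockout libraries had means of 87.2 and 18.8%, 89.6 and 47.0%, and 48.6 and 17.9% in LSK and GMP. A test of whether the difference depended on genotype passed in 5 of 98054 tiles after adjustment (4408 at an unadjusted p under 0.05), and in 1 lower and 1 higher tile of those above.

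**Figure D5:**
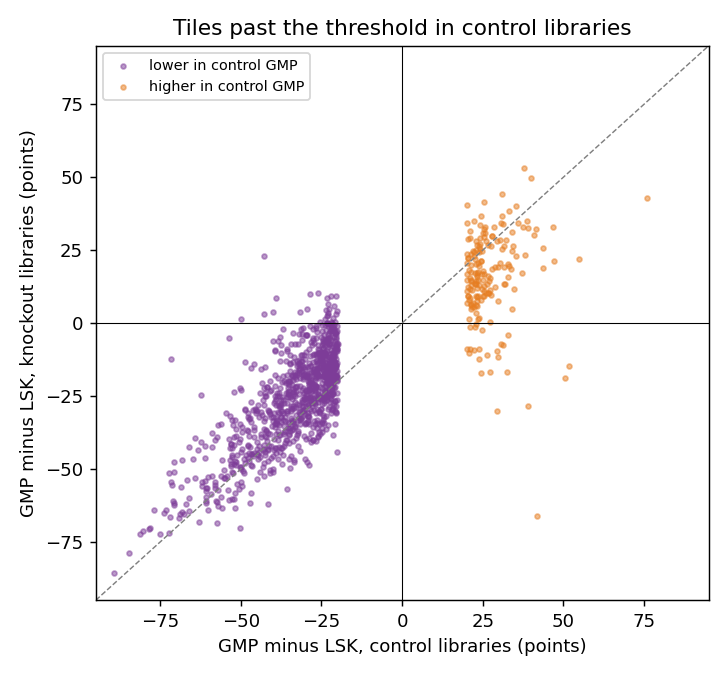
Each point is a tile that passed the threshold in control libraries, with its GMP minus LSK difference (points) in control libraries on the horizontal axis and in knockout libraries on the vertical axis; the dashed line marks equal values. Of the measured lower tiles (purple) 924 of 952 lie below 0 on the vertical axis, and of the higher tiles (orange) 155 of 179 lie above it.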

How the data were processed

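Enhanced reduced representation bisulfite libraries of sorted bone marrow cells were sequenced, per the labels' protocols, after MspI digestion. The deposited files give, per the file headers, the count of reads (coverage) at each C position with the percentages read as C and as T, and hold no position under 10 reads. Bismark and the build mm10 (GRCm38) are named in the submitters' processing notes, and other settings are not given in the sources used here. Methylated reads were coverage times percent C. Reads without molecular identifiers are not independent molecules.

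Autosomal positions with at least 10 reads in all 5 libraries were tested singly, in 1000-bp tiles of at least 3 positions, and within 1000 bp of gene starts and in bodies with at least 5 positions. Genes are those of RefSeq on GRCm38.p6; 12530 of the 16284 starts have a known direction, and for the others the end with more positions was used. A quasi-binomial model with an F test was fitted in R 4.3.3, with dispersions moderated by limma 3.58.1 (prior from features at 5 to 95%, floor of 1) and Benjamini-Hochberg adjustment over all features. A feature passed at an adjusted p under 0.05 and a difference of library means of at least 20 points (tiles), 25 (positions) or 10 (genes). The script was tested on simulated data. Tiles named are the 10 largest losses and 8 largest gains with no overlap and a mean of at least 100 reads, in each of 16 gene lists the largest passing tile within 10 kb of a member (other passing tiles, and the starts and bodies of genes in no list, were named after their values were seen), list members whose start or body passed (up to 6 per list), the genes with the most passing tiles and a fixed panel. Members and lists were chosen with earlier results of these data known. Alternatives were other dispersion priors, limma on logit levels, Fisher's exact test, coverage of at least 20, thinned reads, other tiles and windows, a term for Y positions, spread from 4 groups and leaving out each library; passing both ways was chosen after seeing the data.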

Additional observations from a re-analysis of the deposited data

Results flagged for a closer look

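The difference between GMP and LSK differed between control and knockout libraries in 5 of 98054 tiles by the test of that difference. Of these, 2 were among the tiles that passed in the control libraries. A tile 15589 bp from the nearest start, that of Dmrtb1, was 41.8 points higher in control GMP, with 42.2, 63.9 and 35.6% in LSK and 87.2 and 90.9% in GMP. In the knockout libraries it was -66.2 points, with 96.1, 98.2 and 81.8% in LSK and 12.1 and 39.7% in GMP (interaction, adjusted p = 0.0338). A body tile of Srd5a3, an enzyme of protein glycosylation, was -39.2 points in control libraries, with 81.1, 86.1 and 83.5% against 42.5 and 46.2%. In the knockout libraries it was 8.48 points higher in GMP, with 78.4, 76.7 and 84.8% against 90.0 and 87.0% (interaction, adjusted p = 0.0338).

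The tile at the start of imprinted Snrpn was -26.0 points in control libraries and 10.4 points in knockout libraries, where GMP and LSK did not overlap, though the test of the difference did not pass (adjusted p = 0.763). Opposite signs without overlap were seen in 3 of 952 lower and 3 of 179 higher tiles.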

How the results depend on the processing

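No paired analysis was possible because the GMP and LSK libraries share no replicate number. Of 86 named tiles, starts and bodies, 45 (35 of 54 tiles) kept direction and call under every alternative other than no moderation and limma on logit levels. Without 346 25 calls ended, without 349 31, and without 1 LSK library 8 to 14. GMP rests on 2 libraries and reads 52 to 56 deep, so differences under the thresholds may be missed, and with 1 GMP library left its spread is assumed to be that of LSK.

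Without moderation 0 tiles, positions, starts and bodies passed in either direction, with 8424, 36915, 1594 and 2116 at an unadjusted p under 0.05. With limma on logit levels 6 tiles were lower and 0 higher (13845 at an unadjusted p under 0.05), 63 bodies were lower and 19 higher, and 0 positions and starts passed (208279 and 2957 at an unadjusted p under 0.05). With a prior from all features 0 positions passed (50750 at an unadjusted p under 0.05). With a term for Y positions 713 tiles were lower and 96 higher, and 0 positions passed (48845 at an unadjusted p under 0.05). Under that term 14 starts were lower and 10 higher, and 166 bodies were lower and 151 higher. With the spread of 4 groups 113 tiles, 455 positions, 10 starts and 125 bodies were higher and 28 starts lower. Fisher's exact test gave 7979 lower and 3769 higher positions and 127 lower and 136 higher starts. Thinned reads gave 1347 and 134 positions, 16 higher starts and 29 higher bodies, and passing both ways left 29 and 13 starts and 162 and 22 bodies. With at least 5 positions a tile, which tests 59605 tiles, 449 were lower and 87 higher. Within 2000 bp, 74 starts were lower, 65 higher, and 175 bodies higher. Leaving out 1 library gave 822 to 925 lower and 131 to 171 higher tiles, 638 to 3188 and 44 to 637 positions, 7 to 38 and 4 to 51 starts, and 136 to 353 and 77 to 394 bodies. The mean level difference turned to 2.65 points weighted by coverage and 0.673 over each library's own list. With thinned reads the start of Dazl turned to -0.339 and the bodies of Hmga2, Lck, Lef1 and Notch1 to -0.0797, -0.476, -0.699 and -1.08. Except where fewer features or libraries entered, the cause was not tested.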

Other observations

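GMP library 352, which the labels put in no single group, entered no comparison. Its level was below that of all 3 control LSK libraries in 971 of 982 lower tiles (98.9%; 48.3% of all tiles) and above all of them in 80 of 191 higher tiles (41.9%; 20.5% of all tiles). Its median was 33.3% over the lower tiles and 34.2% over the higher tiles.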
